A study of Mus musculus with 6 samples.

Results

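Expression of 8 genes of spleen organ identity and stroma was followed in bulk RNA-seq of 5-fluorouracil (5-FU)-treated mice. The genes were chosen by name, Tlx1, Nkx2-3, Tcf21, Nr2f2, Madcam1, Stab2, Lyve1 and Pdpn, and all 8 were found among the 41325 gene rows of each library. The elemental diet group held 3 libraries from mice that received the oral formula Elental, whose nitrogen source is amino acids, at 1.6 kcal in 0.8 mL per day. The saline group held 3 libraries from mice given the same volume of saline. All were female ICR mice, an outbred stock, purchased when 10 weeks old and fed a commercial diet, and all were injected into the peritoneum with 20 mg/kg per day of 5-FU on 2 days a week for 3 weeks. Oral dosing took place 2 times a day, 5 times a week, over the same 3 weeks. Mice without 5-FU were not among the samples used here. Salivary gland is the labelled tissue. Both groups are described as 3 animals, but no label ties a library to its own animal, and p-values therefore cover only library-to-library spread, which may be technical.

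The spleen forms from mesenchyme of the embryonic gut region under a small set of transcription factors. In mice, loss of the homeobox gene Tlx1 or of the bHLH gene Tcf21 leaves no lasting spleen, and loss of the homeobox gene Nkx2-3 gives a small, disordered spleen that lacks the vascular addressin MADCAM1. Adult spleen keeps these factors in its stroma, the reticular cells and endothelium that house blood cells, where MADCAM1 lines the marginal sinus and the hyaluronan scavenger receptor encoded by Stab2 lines sinusoids.

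Most of the 8 genes were lower in the elemental diet libraries. By edgeR's quasi-likelihood test, with Benjamini-Hochberg adjustment over the 18303 genes tested, 6 of the 8 fell, where 40.2% of all genes tested fell. Lyve1 was called higher, where 38.0% of all genes tested were, and Pdpn did not pass. The 6 that fell were Madcam1, Tcf21, Tlx1, Nr2f2, Nkx2-3 and Stab2. The 7 called of 8 compare with 78.1% of all genes tested in either direction, so the number of calls does not set these genes apart. The 2 groups did not overlap in 7 of the 8 genes, against 81.0% of all genes tested, and 6 of these were lower with elemental diet, against 41.9%. All 8 passed the filter on low counts. Their median log2 fold change was -0.98, against -0.08 over all genes tested, of which the middle 50% lay between -0.97 and 0.74. In bulk libraries, fewer cells of a type and less RNA per cell cannot be told apart, here or in any result that follows.

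The libraries held 29053287 to 33073125 reads assigned to genes, and a count of 0 allows a level of up to 0.0907 to 0.103 CPM (counts per 1e+06 reads), that of 3 reads. Several genes that define salivary epithelium were at or near 0. Smgc, Pip, Bpifa1 and Prb1 had no read in any library. Aqp5 had 4 reads in all with elemental diet against 2 with saline, and Krt5 had 2 reads with elemental diet against none with saline. The 12 genes listed for salivary epithelium summed to 5.37 to 8.38 CPM with elemental diet and 13.1 to 15.1 CPM with saline. Of the 12 salivary genes 5 could be tested, and 1, the epithelial adhesion gene Epcam, fell, where 40.2% of all genes tested fell. RNA of blood cell genes differed between the groups. All 9 erythroid genes rose, where 38.0% of all genes tested did. Their summed level was 41604 to 42454 CPM with elemental diet and 2829 to 4504 CPM with saline. That of 8 B cell genes was 785 to 837 CPM with elemental diet and 5743 to 5938 CPM with saline. The part of these differences in the results on the 8 genes was not tested.

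Stretches of sequence before 3 of the genes are shown because Tlx1 and Nkx2-3 are the organ identity factors that lie on one chromosome and both fell, and Madcam1 had the largest fall of the 8. Each is the 250 bases upstream of the start of the gene in RefSeq (GRCm38.p6), written in the direction of transcription, and 7 of the 8 genes had an entry; Lyve1 is named only. Capitals mark matches to motifs searched on both strands. The motifs were GGGAA followed by any 3 bases and CC (a form of the NF-kB motif), AGGTCA (the nuclear receptor half-site), CAGCTG (an E-box), TNAAGTG (an NKX2 motif) and CCAAT.
Tlx1 (chr19:45150465-45150714, + strand): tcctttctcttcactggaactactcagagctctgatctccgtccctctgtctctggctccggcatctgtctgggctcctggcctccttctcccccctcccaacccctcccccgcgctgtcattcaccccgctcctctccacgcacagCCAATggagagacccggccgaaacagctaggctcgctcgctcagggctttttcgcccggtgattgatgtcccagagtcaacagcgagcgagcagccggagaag
Nkx2-3 (chr19:43612075-43612324, + strand): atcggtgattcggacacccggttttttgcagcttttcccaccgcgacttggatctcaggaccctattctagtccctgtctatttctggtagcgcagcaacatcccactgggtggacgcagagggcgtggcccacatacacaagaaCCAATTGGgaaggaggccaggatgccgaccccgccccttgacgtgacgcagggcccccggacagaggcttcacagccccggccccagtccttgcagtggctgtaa
Madcam1 (chr10:79664309-79664558, + strand): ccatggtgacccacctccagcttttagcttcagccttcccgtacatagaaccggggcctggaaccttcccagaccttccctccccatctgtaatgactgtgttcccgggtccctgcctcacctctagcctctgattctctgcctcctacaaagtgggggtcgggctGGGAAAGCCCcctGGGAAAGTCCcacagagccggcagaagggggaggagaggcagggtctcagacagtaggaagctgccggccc
The Madcam1 stretch held 2 copies of this NF-kB form, GGGAAAGCCC at positions -84 to -75 and GGGAAAGTCC at -71 to -62, counted from the gene start. Of the 32817 RefSeq stretches of this length, 4.95% held at least 1 copy and 0.201% at least 2. Tlx1 held 1 CCAAT at positions -103 to -99. Nkx2-3 held 2 on opposite strands that overlap, at -105 to -101 and -102 to -98. At least 1 CCAAT was present in 33.8% and at least 2 in 10.1% of all stretches. Of the other genes, Nr2f2 held 1 NF-kB form and 2 CCAAT, Stab2 and Pdpn 1 AGGTCA each, a half-site found in 14.0% of all stretches, and Tcf21 no match. CAGCTG and TNAAGTG, present in 13.0% and 10.1% of all stretches, had no match in the 7. These matches describe letters in the window and not binding.

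Tlx1, the homeobox factor on which the spleen anlage depends, lies on chromosome 19 (GRCm38, 45150680 to 45156943, + strand). Its level, scaled by TMM as are all CPM values of genes here, was 19.8, 20.3 and 16.1 CPM in the elemental diet libraries, against 38.3, 38.0 and 36.6 CPM in the saline libraries. The groups did not overlap, and every saline library stood well above the highest elemental diet library. Tlx1 had a log2 fold change of -1.001 (SE 0.09, edgeR adjusted p = 1.0e-07). Between 44.0% and 55.4% of the Tlx1 reads were unique to the gene. With unique reads alone the log2 fold change was -0.94. Reads across exon junctions numbered 84, 104 and 58 with elemental diet and 171, 178 and 151 with saline, so spliced Tlx1 transcript was present in all 6 libraries. Tlx1os, an antisense gene that overlaps it, held 12 reads in the elemental diet group against 22 in the saline group.

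Nkx2-3, the homeobox factor that Madcam1 expression needs in mouse spleen, lies 1534787 bases from Tlx1 on the same chromosome (43612325 to 43615892, + strand). It stood at 16.8, 13.5 and 10.6 CPM with elemental diet, against 26.4, 21.3 and 24.3 CPM with saline. The groups did not overlap, and the third elemental diet library was the lowest. Its log2 fold change was -0.81 (SE 0.15, adjusted p = 0.000593). All reads of Nkx2-3 were unique.

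Tcf21, a bHLH factor of visceral mesenchyme (chromosome 10, 22817281 to 22820174, - strand), fell more. It stood at 23.7, 21.2 and 17.2 CPM with elemental diet, against 52.7, 51.7 and 44.9 CPM with saline. For Tcf21 this was a log2 fold change of -1.26 (SE 0.11, adjusted p = 7.7e-07). The groups did not overlap. Between 11.4% and 14.4% of its reads were unique, and the log2 fold change with unique reads was -1.27. The antisense gene Gm10824 overlaps it, with 26 reads in the elemental diet group against 155 in the saline group, and reads of the pair may be mixed, since no source used here says if strand was counted.

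Nr2f2, which encodes the orphan nuclear receptor COUP-TFII and sets venous identity in endothelium (chromosome 7, 70351944 to 70366735, - strand), stood at 43.1, 36.5 and 29.5 CPM with elemental diet, against 75.8, 67.8 and 68.1 CPM with saline. The groups did not overlap. This gave a log2 fold change of -0.95 (SE 0.12, adjusted p = 0.000148). B130024G19Rik, which overlaps its start on the other strand, was lower as well, with 280 reads in the elemental diet group against 990 in the saline group.

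In each of Nkx2-3, Tcf21 and Nr2f2 the first elemental diet library was the highest and the third the lowest of their group. Tlx1 was also lowest in the third, and Stab2 followed the order of those genes.

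Madcam1 encodes the addressin that binds lymphocyte integrin, and lies on chromosome 10 (79664559 to 79668537, + strand). It stood at 4.37, 5.20 and 4.38 CPM with elemental diet, against 13.6, 16.3 and 16.3 CPM with saline. The groups were far apart, with 119 to 153 reads per library with elemental diet and 472 to 542 with saline. The log2 fold change was -1.72 (SE 0.13, adjusted p = 2.3e-08), the largest fall of the 8, and 12.2% of all genes tested had a lower log2 fold change. All Madcam1 reads were unique and no other gene row overlaps it.

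Stab2 encodes the large endocytic receptor that clears hyaluronan in sinusoids (chromosome 10, 86841198 to 87008025, - strand). It was the member with the most reads, at 110.4, 99.3 and 91.1 CPM with elemental diet, against 139.5, 137.9 and 131.2 CPM with saline. The groups did not overlap, but the gap was small. Stab2 had a log2 fold change of -0.44 (SE 0.06, adjusted p = 3.0e-05), and 39.2% of all genes tested had a lower one. Of the 6 genes that fell, Stab2 was the one that did not also pass edgeR's test against a fold change of 1.5. The other 5 passed it as lower, where 26.6% of all genes tested did and 50.8% passed in either direction. Junction reads of Stab2 numbered 1345 to 1548 per library with elemental diet and 2138 to 2270 with saline. Between 71.1% and 74.0% of its reads were unique, and the log2 fold change with unique reads was -0.48. Gm16268, which overlaps Stab2 on the other strand, held 209 reads in the elemental diet group against 419 in the saline group.

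**Figure D1:**
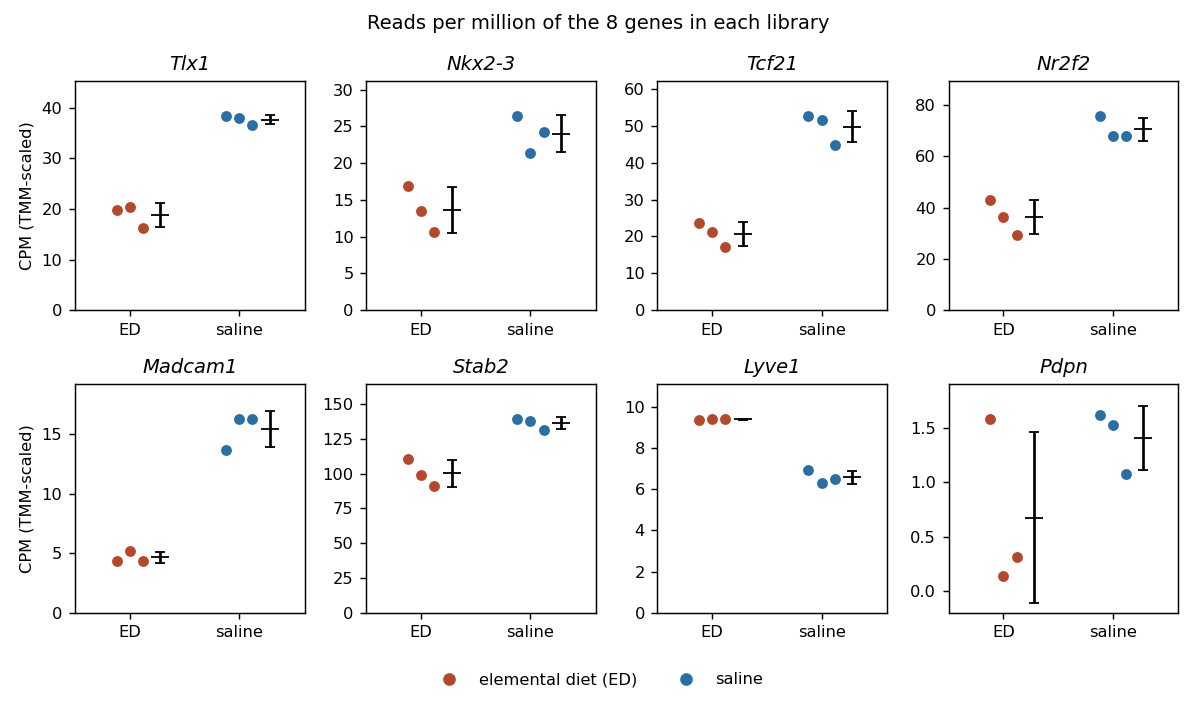
TMM-scaled CPM of each of the 8 genes (y axis, each panel on its own scale) in the 3 elemental diet (ED) libraries and the 3 saline libraries; points are libraries and bars the mean ± SD. The groups do not overlap in 7 genes, Lyve1 alone is higher with elemental diet on this scale (not called on exon reads), and Pdpn has 1 elemental diet library at 1.58 CPM beside 0.136 and 0.313.

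Lyve1 encodes a hyaluronan receptor of lymphatic endothelium and of some macrophages (chromosome 7, 110850607 to 110863239, - strand). It stood at 9.37, 9.39 and 9.42 CPM with elemental diet, against 6.90, 6.31 and 6.49 CPM with saline. The log2 fold change was 0.52 (SE 0.12, adjusted p = 0.00158). This call did not hold on exon reads scaled on their own totals, where the log2 fold change was 0.20 and the edgeR adjusted p = 0.143, nor without composition normalization (0.21, adjusted p = 0.138) or with upper quartile scaling (0.24, adjusted p = 0.0837). On the authors' TPM scale, which is built from exon reads, Lyve1 was at 7.26, 7.55 and 7.10 with elemental diet and 8.14, 7.52 and 7.70 with saline, where the groups overlap.

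Both exon and intron reads of Lyve1 stood higher in every elemental diet library on the TMM scale of all gene reads. Its exon reads came to 7.90, 8.47 and 7.94 CPM with elemental diet, against 6.73, 6.25 and 6.49 CPM with saline. Its intron reads came to 1.47, 0.918 and 1.49 CPM with elemental diet, against 0.173, 0.0601 and 0 CPM with saline, from 40, 27 and 38 reads with elemental diet and 6, 2 and 0 with saline. Intron reads were 15.7%, 9.78% and 15.8% of Lyve1 reads with elemental diet and 2.51%, 0.952% and 0% with saline. The groups did not overlap in this share. An exact permutation test of 3 against 3 libraries cannot go below p = 0.1. The share of intron reads over all genes moved the other way, at 8.64% ± 0.225 with elemental diet and 14.0% ± 0.341 with saline (SD, n = 3). No other gene row overlaps Lyve1.

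Among the other members the intron shares were less distinct. Stab2 had the highest, 23.4% to 30.0% with elemental diet and 28.7% to 34.0% with saline, and these overlap. Nr2f2 had 18.0% to 22.0% with elemental diet and 15.2% to 17.4% with saline, which do not overlap. Tcf21 had under 2% in every library, while the ranges of Tlx1, Nkx2-3, Madcam1 and Pdpn overlapped between the groups.

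**Figure D2:**
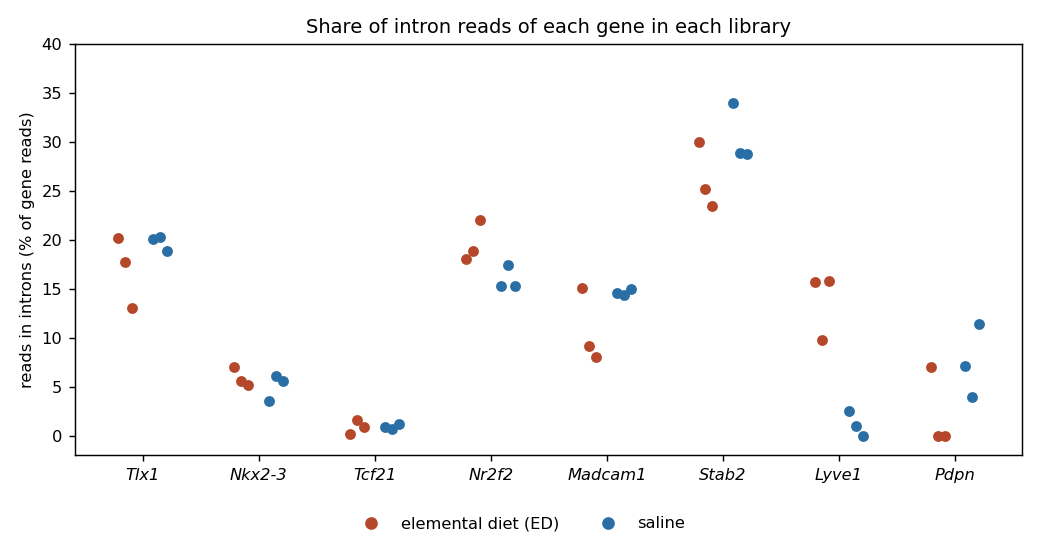
Reads in introns as a percentage of all reads of the gene (y axis) for each of the 8 genes in the elemental diet and saline libraries; each point is 1 library. Lyve1 lies between 9.78% and 15.8% with elemental diet and between 0% and 2.51% with saline, whereas the groups overlap in 6 of the other genes and lie close together in Nr2f2.

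Pdpn encodes podoplanin, a surface mucin of lymphatic endothelium, reticular cells and mesothelium and the ligand of the platelet receptor encoded by Clec1b (chromosome 4, 143267431 to 143299564, - strand). It was the lowest of the 8, at 1.58, 0.136 and 0.313 CPM with elemental diet, against 1.62, 1.53 and 1.08 CPM with saline. The first elemental diet library, with 43 reads, lay within the saline range of 35 to 56 reads, and the other two had 4 and 8 reads. The log2 fold change of -1.06 (SE 0.71) did not pass (adjusted p = 0.202). Without the first elemental diet library it was -2.64, with an adjusted p = 0.000131, and this is the only library whose removal changed the call of a member.

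Mesothelial marker genes were likewise highest of the elemental diet group in its first library. Msln, which encodes mesothelin, was at 10.8, 2.11 and 0.156 CPM with elemental diet and 8.15, 11.7 and 3.54 CPM with saline. Upk3b, a uroplakin gene of mesothelium, was at 12.1, 1.16 and 0.626 CPM with elemental diet and 7.92, 14.1 and 3.26 CPM with saline. The summed level of 5 mesothelial genes (Msln, Upk3b, Upk1b, Krt19 and Lrrn4) was 33.7, 4.35 and 1.25 CPM with elemental diet and 22.4, 37.0 and 9.42 CPM with saline, so the spread within each group was wide. None of the 5 was called. The part of mesothelial or smooth muscle cells in the Pdpn values was not tested.

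**Figure D3:**
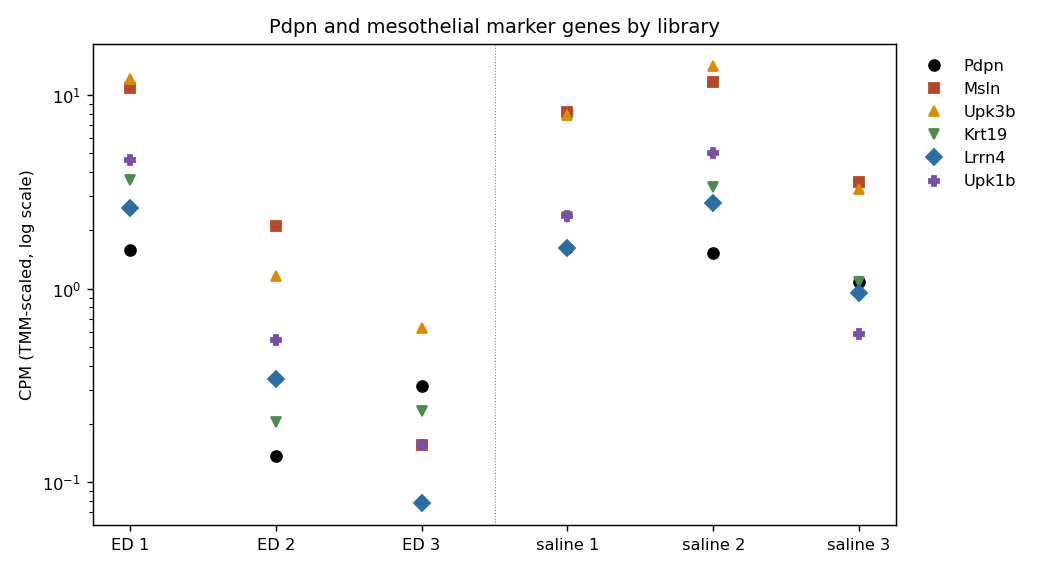
TMM-scaled CPM on a log axis of Pdpn and 5 mesothelial marker genes in each of the 6 libraries; each symbol is a gene. In the elemental diet (ED) group all 6 genes are highest in library 1, where Pdpn stands at 1.58 CPM and Msln at 10.8 CPM, against 0.136 and 2.11 CPM in library 2 and 0.313 and 0.156 CPM in library 3.

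Levels of the 8 genes can be set against each other only per transcript length, for which the authors' TPM values were used. With elemental diet the order was Tcf21 (23.0 TPM), Stab2 (22.2), Tlx1 (19.1), Nkx2-3 (16.0), Nr2f2 (8.96), Madcam1 (7.61), Lyve1 (7.30) and Pdpn (0.938). With saline it was Tcf21 (73.5 TPM), Tlx1 (49.4), Stab2 and Nkx2-3 (both 37.8), Madcam1 (32.0), Nr2f2 (24.1), Lyve1 (7.79) and Pdpn (2.53). Neighbours in the order whose libraries overlapped were Tcf21 and Stab2, Tlx1 and Nkx2-3, Nr2f2 and Madcam1, and Madcam1 and Lyve1 with elemental diet, and Stab2 and Nkx2-3, and Nkx2-3 and Madcam1 with saline. All other neighbours were apart in every library of the group. Madcam1 thus stood beside Lyve1 with elemental diet, against well above it with saline. TPM carries no TMM scaling and no intron reads, so its ratios between groups differ from the fold changes above. Between 11.4% and 14.4% of Tcf21 reads, 44.0% to 55.4% of Tlx1 reads and 71.1% to 74.0% of Stab2 reads were unique. No source used here says how shared reads entered TPM, so the places of these genes in the order are uncertain.

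**Figure D4:**
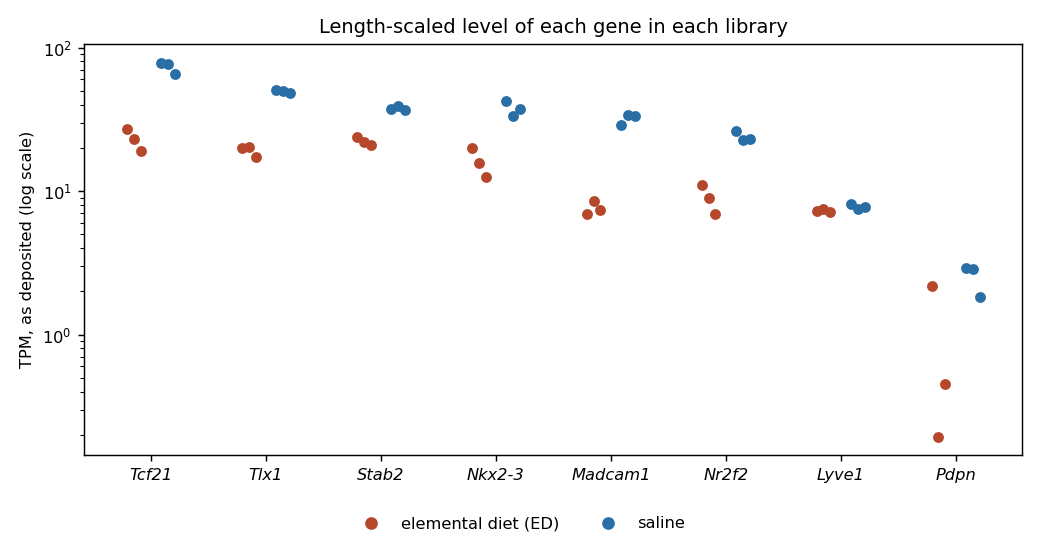
TPM as deposited (log scale) of the 8 genes, ordered by their mean in the saline group; each point is 1 library of the elemental diet (ED) or saline group. Transcription factor genes and Stab2 lie between 6.97 and 27.0 TPM with elemental diet and between 22.8 and 78.4 with saline, and Lyve1 is at 7.10 to 8.14 TPM in all 6 libraries.

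Among the 14 paralogues of the transcription factors 7 had too few reads to test. Tlx2, Nkx2-4 and Nkx2-6 had no read in any library, and Nkx2-1, Nkx2-2 and Nkx2-9 had 1 to 4 reads in all 6 libraries together. Tlx3 held 8 reads in the elemental diet group against none in the saline group. Of the 7 that could be tested 4 fell and 1 rose, where 40.2% of all genes tested fell and 38.0% rose. Nkx2-5, a homeobox factor of heart that also acts in the spleen anlage, stood at 4.06 ± 0.790 CPM with elemental diet and 8.23 ± 0.260 CPM with saline (SD, n = 3). Msc, a bHLH relative of Tcf21, fell 4.28-fold, and Nr2f6, a relative of Nr2f2, 1.64-fold. Tcf15, another bHLH gene, went the other way, at 16.0 ± 0.743 CPM with elemental diet and 0.720 ± 0.129 CPM with saline.

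Other transcription factors that act in the spleen anlage in mice were mixed. Of 12 such genes 8 could be tested, of which 5 fell and 2 rose, with a median log2 fold change of -0.70. Over all genes tested 40.2% fell and 38.0% rose. Besides Nkx2-5, Pbx2 fell 1.32-fold, while Pbx3 rose to 54.1 ± 2.37 CPM with elemental diet, against 24.8 ± 3.55 CPM with saline. PBX proteins are homeodomain partners of other homeobox factors. Named after their values were seen, Nr5a1, a nuclear receptor gene of spleen endothelium, fell 1.66-fold, Nkx3-2, a homeobox gene, 1.59-fold and Wt1, a zinc finger gene also of mesothelium, 2.13-fold. The calls of Nkx3-2 and Wt1 were lost on leaving out certain single libraries: the third elemental diet library (adjusted p = 0.0621) or the first saline library (adjusted p = 0.0579) for Nkx3-2, and the second elemental diet library (adjusted p = 0.0802), the first saline library (adjusted p = 0.0631) or the second saline library (adjusted p = 0.0541) for Wt1, all by edgeR. The Wt1 call was also lost with no filter on low counts (edgeR adjusted p = 0.0706).

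Blood vessel and sinusoid endothelial genes mostly fell. Of 20 tested 14 fell, 4 rose and 2 did not pass, where 40.2% of all genes tested fell and 38.0% rose. Their median log2 fold change was -0.64. Pecam1, an adhesion molecule of endothelium and leukocytes, stood at 103 ± 3.13 CPM with elemental diet and 298 ± 11.3 CPM with saline. Ptprb, the endothelial receptor phosphatase, fell 2.05-fold, and Plvap, the diaphragm protein of fenestrated endothelium, 1.90-fold. Vwf, shared by endothelium and megakaryocytes and named after its value was seen, was higher with elemental diet, at 482 ± 64.6 CPM against 137 ± 4.59 CPM with saline. The other rises, in Eng, Esam and Egfl7, also named after their values were seen, were 0.16, 0.19 and 0.22 on the log2 scale; without composition normalization all turned negative, Eng then being called lower. Stab1, the paralogue of Stab2, stood at 28.3 ± 8.74 CPM with elemental diet and 31.2 ± 3.89 CPM with saline and did not pass (adjusted p = 0.627).

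Lymphatic endothelial genes gave no single direction, with 3 of 5 tested lower and 2 higher. Over all genes tested these shares were 40.2% and 38.0%. Prox1 and Flt4, the transcription factor and growth factor receptor of lymphatic identity, both named after their values were seen, fell 1.41-fold and 1.47-fold. Ccl21a, a chemokine of lymphatic endothelium and T zone stroma, stood at 37.4 ± 5.34 CPM with elemental diet and 377 ± 77.0 CPM with saline. Reln and Mmrn1 rose. Mmrn1, which megakaryocytes also express, was at 125 ± 13.6 CPM with elemental diet and 28.3 ± 1.46 CPM with saline, and Reln, an extracellular glycoprotein, at 38.0 ± 2.32 CPM with elemental diet and 1.74 ± 0.265 CPM with saline.

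Stromal genes that organise lymphocytes mostly fell. Of 21 tested genes of reticular and follicular dendritic cells 15 fell, 2 rose and 4 did not pass. Their median log2 fold change was -1.36. Over all genes tested 40.2% fell and 38.0% rose. Cxcl13, the chemokine that draws B cells into follicles, stood at 41.6 ± 2.73 CPM with elemental diet and 193 ± 11.9 CPM with saline. Ccl19, a chemokine of the T zone, fell 5.48-fold, and Mfge8, a product of follicular dendritic cells that macrophages also make, 3.62-fold. The 2 that rose were collagen genes, named after their values were seen. Col1a1 was at 149, 108 and 84.7 CPM with elemental diet and 47.4, 41.2 and 40.9 CPM with saline. Col3a1 was at 308, 176 and 147 CPM with elemental diet and 107, 79.3 and 70.7 CPM with saline, with an adjusted p = 0.0312 that was lost in 7 of the 15 alternatives (adjusted p of 0.0504 to 0.106), among them without the second elemental diet library or without any 1 saline library. For both collagens the first elemental diet library was the highest of the 6.

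Of 13 smooth muscle and mesothelial genes 3 fell and 10 did not pass, where 40.2% of all genes tested fell. Notch3 and Rgs5, genes of the cells around vessels, fell 2.01-fold and 1.84-fold, and Des, a muscle intermediate filament gene, 1.89-fold. Without the first elemental diet library 8 of the 13 fell, where 7580 of all 18942 genes then tested fell. The Rgs5 call was lost without the third elemental diet library (edgeR adjusted p = 0.0628) and with no filter on low counts (edgeR adjusted p = 0.0564).

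The pathway that maintains MADCAM1 and stromal chemokines runs from lymphotoxin on lymphocytes through its receptor on stroma to noncanonical NF-kB. Of 9 genes of this pathway 8 fell and 1, Tnfsf14, rose, where 40.2% of all genes tested fell and 38.0% rose. The ligand gene Ltb stood at 47.9 ± 3.84 CPM with elemental diet and 245 ± 4.43 CPM with saline. The kinase gene Map3k14 fell 5.19-fold, and Nfkb2 2.98-fold. The receptor gene Ltbr, named after its value was seen, fell less, by 0.49 on the log2 scale. Lymphocytes also express most of these genes. In the B cell list 8 of 8 genes were lower, with a median log2 fold change of -2.84. The part of lymphocytes in the falls of the pathway genes was not tested.

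Genes whose products bind those of the members were split. Of the MADCAM1 partners, Itgb7 fell 4.05-fold, while Itga4 (named after its value was seen) and Itgb1 rose 2.11-fold and 2.01-fold. Of 6 podoplanin partners 4 rose and 2 fell, where 38.0% of all genes tested rose and 40.2% fell. Cd9, a tetraspanin of platelets and other cells, rose 2.49-fold, and Msn, which encodes the membrane linker moesin, fell 2.25-fold. Clec1b, the podoplanin receptor of platelets and named after its value was seen, was at 96.0 ± 9.72 CPM with elemental diet and 33.3 ± 3.14 CPM with saline. Of 9 tested genes that make, break or bind hyaluronan, the ligand of the Stab2 and Lyve1 products, 3 rose and 3 fell. Hmmr, a hyaluronan-binding protein of the mitotic spindle, rose 37.4-fold, Cemip, a hyaluronan-degrading protein, fell 2.08-fold, and Cd44 rose 1.28-fold, a rise not called without composition normalization (adjusted p = 0.254) or with upper quartile scaling (adjusted p = 0.0634).

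Markers of macrophages, some of which carry Lyve1, fell in 9 of 10 cases and did not pass in 1. The share that fell over all genes tested was 40.2%. Their summed level was 559 to 678 CPM with elemental diet and 1400 to 1678 CPM with saline. Hmox1, C1qa and Marco fell with log2 fold changes of -1.25, -1.38 and -1.60. Among 4 genes of high endothelial venules, the lymphocyte entry vessels of lymph nodes, Glycam1 and Chst4 were near the floor. All 4 together summed to 4.48 to 5.61 CPM with elemental diet and 11.6 to 12.5 CPM with saline. Glycam1 held no read in the elemental diet group against 18 in the saline group, and Chst4 held 6 in the elemental diet group against 14 in the saline group, while Chst2, 1 of the 2 tested, fell 2.93-fold. The 8 exocrine pancreas genes summed to at most 0.368 CPM in a library, and none could be tested.

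**Figure D5:**
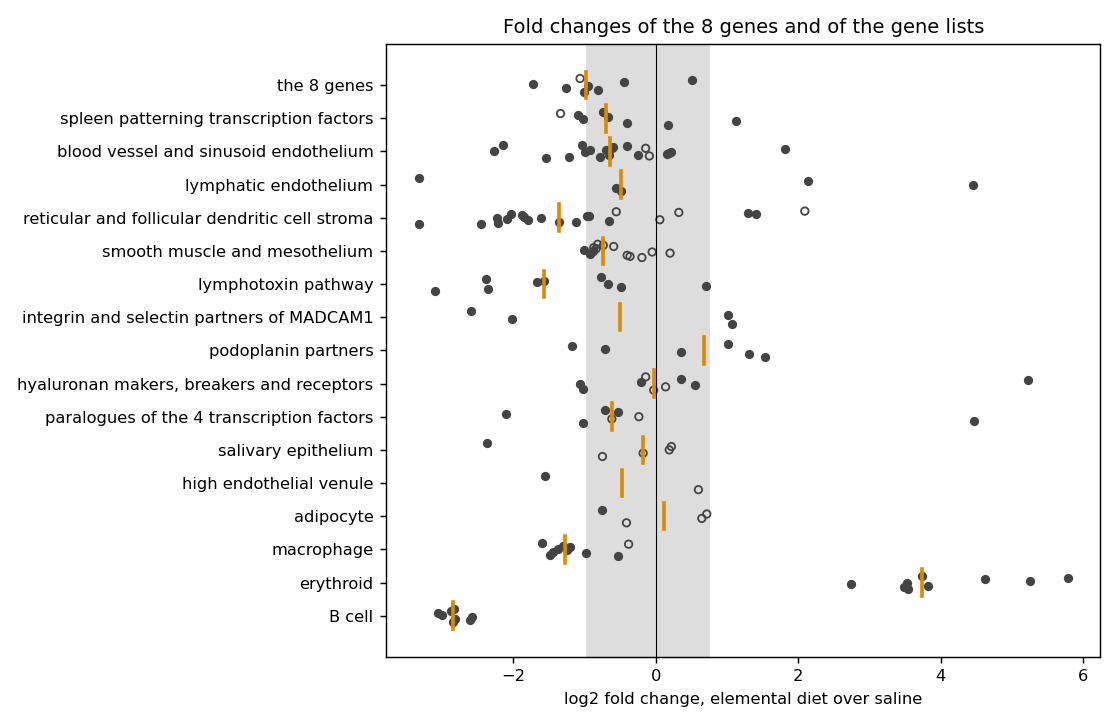
Log2 fold change, elemental diet over saline (x axis), of the 8 genes and of every tested gene of 16 lists; filled points passed edgeR's test at an adjusted p of 0.05, open points did not, and orange bars are medians. The grey band is the middle 50% of all genes tested, -0.97 to 0.74; the 8 genes have a median of -0.98, reticular stroma -1.36, B cell genes -2.84 and erythroid genes 3.74.

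The genes with the profile most like each member were found from Pearson's r of log2 CPM over the 6 libraries among 15495 other genes of at least 1 CPM. Since the groups differed in most genes, such likeness was common: 3673 genes reached an r over 0.95 with Tlx1, 733 with Nkx2-3, 3944 with Madcam1 and 4926 with Lyve1. Genes named as nearest leave out clone names, numbered predicted genes, pseudogenes, antigen receptor segments and some other gene types. The counts over 0.95 leave out none of these. Nearest to Tlx1 were Hmcn1, Nap1l5 and Ttc5 (r of 0.999 or more), and among the nearest to Madcam1 were Slc7a11 and Ehmt2. Pdpn was different, with 43 genes over 0.95, the nearest being Ppp1r3c (r = 0.993), P4ha1 (0.992) and Wnt2b (0.989). The 6 points are 2 groups of 3, so these values are a description.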

How the data were processed

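Total reads per gene, as whole-number counts, and TPM were deposited by the authors, 1 file per library. Per the file headers, gene reads are the sum of exon and intron reads, and total reads include reads that are not unique to a gene. Polyadenylated RNA was sequenced as paired 75 bp reads, per the labels' protocols, whose extraction text gives fibroblasts or keratinocytes as the source of RNA; this differs from the labelled tissue. The submitters' processing notes name GRCh37 and GRCm38. No source used here gives the aligner, counter or strand setting.

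Counts were filtered (filterByExpr), TMM-scaled and tested in R 4.3.3 by the robust quasi-likelihood fit and two-sided F test of edgeR 4.0.16, with Benjamini-Hochberg adjustment over 18303 genes at 0.05. Each SE was approximated as the size of the log2 fold change over the root of its F. Alternatives were RLE, upper quartile or no scaling, no filter, unique or exon reads, DESeq2 1.42.0, a replicate block and leaving out libraries. The test was checked on simulated counts in which few genes differed between the groups. In the data 78.1% of genes tested were called, so that check does not cover how calls depend on scaling. Replicates were compared: the median chi-square per gene between 2 libraries of a group was 2.79 to 5.53 times sampling noise, so none was a repeat deposit. The floors given for a count of 0 cover counting error only and use library totals without TMM scaling. Of 176 list symbols in 17 lists, 175 were found. The members and lists were chosen with earlier results of these data known. Named were the 8 genes, up to 3 called genes of smallest p per list, and defining markers near 0; others are marked. A few genes this rule names are not reported here. CPM and TPM are levels, and fold changes are elemental diet over saline.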

Additional observations from a re-analysis of the deposited data

How the results depend on the processing

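Of the 8 genes, Tlx1, Nkx2-3, Tcf21, Nr2f2, Madcam1 and Stab2 kept their direction and their call in all 15 alternatives. The fall of Tlx1 ranged from -1.31 to -0.94 on the log2 scale over the settings that kept all libraries. For Madcam1 the range was -2.03 to -1.68, and for Stab2 -0.75 to -0.40. The median of all genes moved to -0.39 without composition normalization and to -0.35 with upper quartile scaling, and calls split 5407 higher and 9265 lower in the first of these, against 6951 and 7352 with TMM. Without composition normalization and with upper quartile scaling 0 members were higher, as were 1 patterning, 1 vessel and 1 reticular stroma gene. With exon reads 0 members, 1 patterning and 1 vessel gene were higher. Without a filter 1 reticular stroma gene and 2 paralogues were higher and 2 venule, 4 patterning and 2 smooth muscle and mesothelial genes lower. Leaving out each library in turn gave 1 to 2 patterning genes higher and 3 to 6 lower, 2 to 4 vessel genes higher, 1 to 2 reticular stroma genes higher, 2 to 8 smooth muscle and mesothelial genes lower, 1 to 2 salivary genes lower and 0 to 1 venule gene higher. The highest counts for the muscle and mesothelial and the salivary genes came without the first elemental diet library. Chosen after seeing the data, leaving out both libraries numbered 1 gave 2 vessel genes higher, 8 smooth muscle and mesothelial and 2 salivary genes lower, and 1 adipocyte gene higher and 2 lower; Pdpn was then called lower at -2.54. The cause of these changes was not tested.

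The replicate numbers were not used as pairs in the main fit. Adipocyte genes were nonetheless high in the library numbered 1 of both groups, as given below. The correlations of deviations were 0.117, -0.00799 and 0.0578, and 2 of 3 elemental diet libraries correlated best with the saline library of their own number. With the replicate block 6925 genes were higher and 7316 lower, 7 members fell, Pdpn among them (log2 fold change -1.43, edgeR adjusted p = 0.0434), and 1 adipocyte gene was higher and 2 lower.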

Other observations

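Adipocyte marker genes varied widely between libraries of the same group. Their summed level over 9 genes was 171.8, 11.5 and 14.2 CPM with elemental diet and 148.6, 18.6 and 15.9 CPM with saline, so the library numbered 1 was the highest of each group. Of the 4 genes tested 1, Pparg, fell (edgeR adjusted p = 0.00771), where 40.2% of all genes tested fell. Cfd, the adipocyte serine protease adipsin, was at 42.7, 0.0680 and 0 CPM with elemental diet and 42.7, 0 and 0.123 CPM with saline. Adipoq, which encodes adiponectin, was at 8.20, 0 and 0.156 CPM with elemental diet and 5.43, 0.0601 and 0.154 CPM with saline.

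Barx1, a homeobox gene of stomach and spleen mesenchyme in mouse, had a profile close to that of Pdpn, named after its value was seen. It was at 0.882, 0.0680 and 0 CPM with elemental diet and 0.867, 0.871 and 0.677 CPM with saline, and was not called (edgeR adjusted p = 0.219). Dcn, a proteoglycan gene of fibroblasts, also named after its value was seen, was at 71.0, 13.3 and 8.01 CPM with elemental diet and 48.2, 50.3 and 36.9 CPM with saline, and was likewise not called (adjusted p = 0.609). Without the first elemental diet library both were called lower, with log2 fold changes of -4.32 and -2.06. Since both genes were named with their values in that library known, these calls follow from the choice and give no support.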
